A study of Mus musculus with 32 samples.

Results

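The genes described here are Neurog2 and 9 genes that act beside it or after it in neurogenesis: the bHLH factors Neurod1, Neurod2, Neurod4, Nhlh1 and Nhlh2, the zinc finger factor Insm1, the Hes-family factor Hes6, and the Notch ligands Dll1 and Dll3. They were chosen by name, 10 of the 52636 gene entries in the RNA-seq files, and each symbol matched 1 entry. They were followed in 4 groups of 3 rRNA-depleted RNA-seq libraries from hybrid mouse cells: induced neurons (iN) that lack the maternal miR-379/410 microRNA cluster, genotype Mirg(Delta/+); control iN, genotype Mirg(fl/+); and embryonic stem cells (ESC) of each of the same genotypes. ESC (day 0) were kept in serum with LIF, and iN were taken at day 10 of doxycycline induction of a TetO-Ngn2 transgene, so both iN groups carry and express an introduced Neurog2 and none was made without it. Mirg is the noncoding host transcript of the cluster. The groups are called Del iN, Ctl iN, Del ESC and Ctl ESC below. The labels do not say whether replicates A to C are separate clones, cultures or differentiations, so every p-value rests on library-to-library spread that may be technical. Ago2 CLIP-seq, which maps RNA bound by the microRNA effector Ago2, came from Mirg(fl/+) iN that expressed exogenous HA-Ago2 or untagged Ago2.

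Neurogenins are proneural bHLH transcription factors. They pair with E proteins, bind E-box DNA (CANNTG) and switch on further bHLH genes of the NeuroD and Nhlh families together with Insm1, Hes6 and Delta ligands. The Delta ligand on a differentiating cell activates Notch on its neighbours, where Hes1 and Hes5 then hold proneural genes down, the process called lateral inhibition. Forced expression of Neurog2 alone turns pluripotent stem cells into neurons, mostly excitatory ones, within days.

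The sequences on which the 2 regulatory readings below rest are given first. The first set is the 5 mature microRNAs of the deleted cluster that the deposited CLIP table matched to a region in one of the 10 genes. They are from RefSeq (GRCm38.p6), 5′ to 3′, with the seed (bases 2 to 8) in capitals, and all lie on the plus strand of chromosome 12.
miR-369-3p (matched to Neurod1): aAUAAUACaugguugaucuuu
miR-1193-3p (matched to Neurod1): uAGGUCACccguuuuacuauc
miR-154-5p (matched to Nhlh2): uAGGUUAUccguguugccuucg
miR-412-3p (matched to Nhlh1): uUCACCUGguccacuagccg
miR-666-3p (matched to Neurod4): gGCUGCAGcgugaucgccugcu
All 5 seeds differ, so the microRNAs form no group by seed.

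The second set is the promoters of Nhlh1, Nhlh2 and Neurod1, shown because these are the NeuroD and Nhlh genes with a reference promoter that were both well above the low-count filter in iN and higher there than in ESC. Each runs from 250 bases before to 50 bases after the start used in the RefSeq promoter table (GRCm38.p6), on the gene's strand, with each E-box (CANNTG, which reads the same pattern on both strands) in capitals.
Nhlh1 (chr1:172057547-172057846, minus strand): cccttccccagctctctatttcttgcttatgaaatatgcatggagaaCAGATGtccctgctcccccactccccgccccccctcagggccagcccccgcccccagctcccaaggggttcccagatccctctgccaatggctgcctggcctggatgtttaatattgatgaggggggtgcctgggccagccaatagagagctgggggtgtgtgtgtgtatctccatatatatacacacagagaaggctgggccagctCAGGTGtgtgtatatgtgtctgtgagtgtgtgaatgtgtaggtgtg
Nhlh2 (chr3:102009895-102010194, plus strand): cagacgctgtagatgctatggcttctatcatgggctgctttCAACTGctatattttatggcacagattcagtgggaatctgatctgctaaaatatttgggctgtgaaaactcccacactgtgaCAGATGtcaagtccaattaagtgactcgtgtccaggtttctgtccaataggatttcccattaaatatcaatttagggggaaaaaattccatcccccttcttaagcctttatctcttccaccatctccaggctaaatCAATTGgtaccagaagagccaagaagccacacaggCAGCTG
Neurod1 (chr2:79456587-79456886, minus strand): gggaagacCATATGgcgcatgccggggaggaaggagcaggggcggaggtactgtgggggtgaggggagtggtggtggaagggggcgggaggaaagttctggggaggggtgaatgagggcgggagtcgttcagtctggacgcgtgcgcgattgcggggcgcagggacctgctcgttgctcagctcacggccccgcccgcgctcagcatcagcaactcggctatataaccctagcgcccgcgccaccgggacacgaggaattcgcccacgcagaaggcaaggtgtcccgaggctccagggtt
The E-box form CAGATG (or CATCTG on the other strand), which neurogenin and NeuroD factors are known to bind, stood at position -203 relative to the start of Nhlh1 and at -127 relative to that of Nhlh2. Neurod1 had 1 E-box, CATATG, at -242. The promoter table has 12 promoters for 9 of the genes, since Neurod4, Hes6 and Dll1 have 2 each. Of the 12, 10 held a CANNTG, against 72.3% of the 32851 reference promoters of the same length. CAGATG was in 3 of the 12 (Nhlh1, Nhlh2 and Neurod2), against 17.2% of all promoters, and CATATG in 2 (Neurod1 and Neurod2), against 3.91%. The window listed for Neurog2, chr3:127632886-127633185, lies inside the span given for the gene below and held no CANNTG. A match is a description of the letters, and none of these promoters was tested for binding.

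RNA libraries held 14904735 to 21499106 counts, and mitochondrial genes 2.45 to 3.6% of them in Del iN, 3.42 to 4.38% in Ctl iN, 1.47 to 1.84% in Del ESC and 1.99 to 2.27% in Ctl ESC. Mirg checked the genotype labels: it had 2, 0 and 2 counts in Del iN against 455, 685 and 648 in Ctl iN, and 0 in each Del ESC library against 932, 672 and 789 in Ctl ESC. The iN label was checked against 14 neuron markers, whose summed level was 12051 to 12296 CPM in Del iN and 11619 to 11940 CPM in Ctl iN, against 344 to 359 CPM in Del ESC and 299 to 305 CPM in Ctl ESC. CPM are counts scaled to library size, with TMM normalisation factors. The 13 stem cell markers summed to 33.7 to 36.5 CPM in Del iN and 46.3 to 53.8 CPM in Ctl iN, against 3281 to 3440 CPM in Del ESC and 3463 to 3594 CPM in Ctl ESC. The 10 glial markers summed to 54.3 to 59 CPM in Del iN and 48 to 49.9 CPM in Ctl iN, with 5 at 1 CPM or more in Del iN and 3 in Ctl iN. In ESC they summed to 60.7 to 67 CPM with the deletion and 59.5 to 63.4 CPM in controls, near the iN sums. Gfap, an astrocyte marker, and Sox10, an oligodendrocyte lineage marker, had 0 counts in all iN libraries. Other glial markers went both ways. Mbp averaged 43.4 CPM in Del iN and 37.4 CPM in Ctl iN, against 8.26 CPM in Del ESC and 7.91 CPM in Ctl ESC. Slc1a3 averaged 0.104 CPM in Del iN and 0.0991 CPM in Ctl iN, against 50.7 CPM in Del ESC and 47.8 CPM in Ctl ESC.

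Neurog2, the factor whose transgene drives the induction (gene at chr3:127632733-127635636, plus strand), had the highest level of the 10 genes in both iN groups. It had 648, 583 and 583 CPM in Del iN, against 215, 214 and 241 CPM in Ctl iN. In ESC it had 8.59, 10.2 and 10.4 CPM with the deletion and 8.52, 10.1 and 9.01 CPM in controls. Every Del iN library lay above every Ctl iN library, and the ESC groups overlapped. Within iN the deletion libraries were 2.71-fold higher (log2 fold change 1.44 ± 0.06 SE, adjusted p = 9.98e-10 by edgeR's quasi-likelihood test, Benjamini-Hochberg over 16028 genes, n = 3 per group), the 98th highest rise of the genes tested. Between Del ESC and Ctl ESC the log2 fold change was 0.07 ± 0.11 (adjusted p = 0.817). The difference between these effects, the interaction, was 1.35 ± 0.12 on the log2 scale (adjusted p = 3.29e-06, edgeR, 12 libraries). These values may include counts of the introduced Neurog2, which cannot be told apart here from those of the cell's own gene. In bulk RNA, a larger share of cells with a transcript and more transcript per cell cannot be told apart either.

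**Figure D1:**
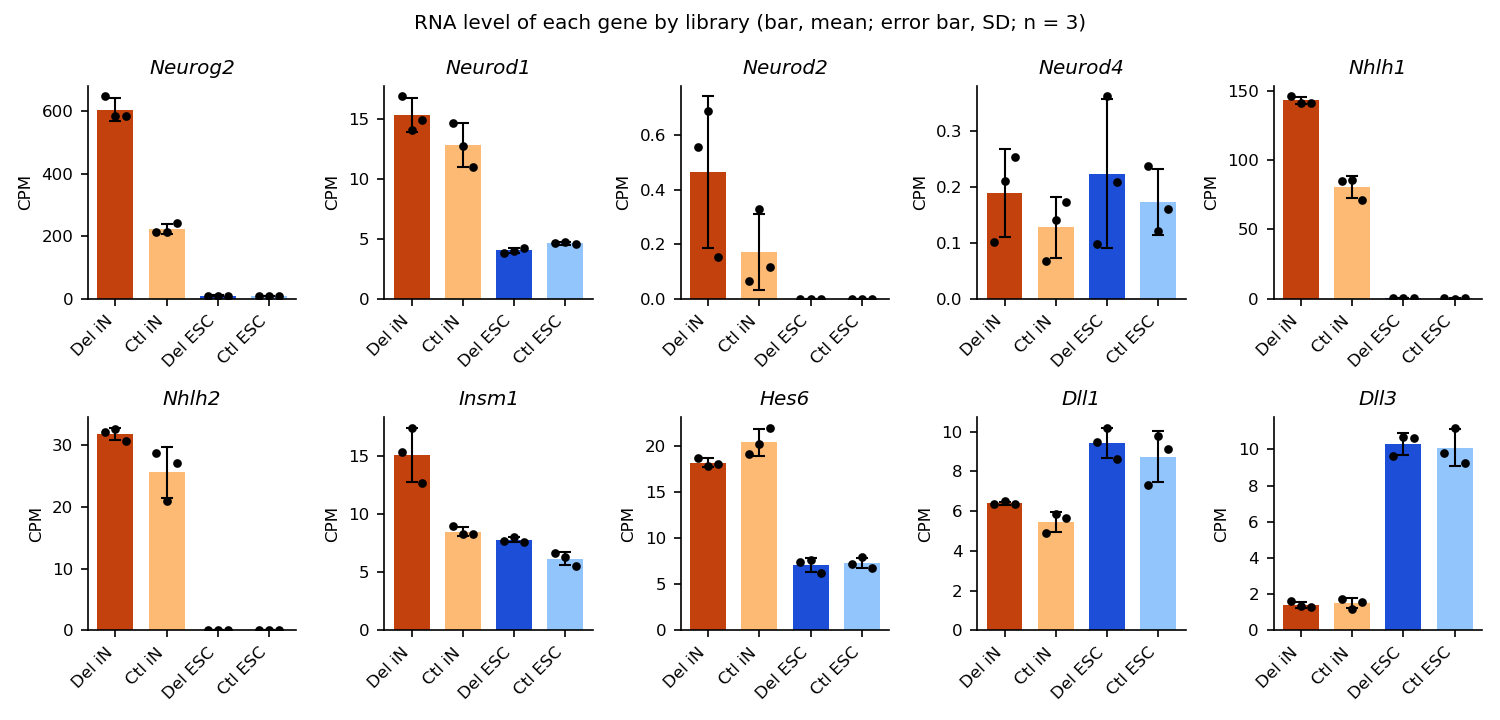
Level of each of the 10 genes in CPM (vertical axis, own linear scale for each gene) in Del iN, Ctl iN, Del ESC and Ctl ESC. Points are libraries, bars means and error bars SD (n = 3). Neurog2 averaged 605 CPM in Del iN and 223 CPM in Ctl iN, while Dll1 and Dll3 were lower in iN than in ESC.

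Of the 10 genes, 8 passed the low-count filter in iN, and 4 of these were higher in Del iN than in Ctl iN by edgeR: Neurog2, Nhlh1, Insm1 and Nhlh2. None was lower. Over all 16028 genes tested, 12.4% were called higher and 13.3% lower. The median log2 fold change of the 8 genes was 0.30, against 0.00 for all genes.

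Nhlh1 (chr1:172052292-172057596, minus strand) encodes a bHLH factor of young postmitotic neurons. It had 146, 141 and 141 CPM in Del iN, against 84.7, 85.4 and 71.5 CPM in Ctl iN. The groups did not overlap, and Del iN were 1.77-fold higher (log2 fold change 0.83 ± 0.07 SE, adjusted p = 5.54e-07, edgeR). In ESC it had 5 to 7 counts per Del library and 3 to 6 per Ctl library, too few for the test.

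Its close relative Nhlh2 (chr3:102010111-102015492, plus strand) is best known for its role in hypothalamic neurons. It had 32.1, 32.6 and 30.6 CPM in Del iN, against 28.7, 20.9 and 27.1 CPM in Ctl iN. The lowest Del iN library stood just above the highest Ctl iN library, and the fold was 1.25 (log2 fold change 0.32 ± 0.10 SE, adjusted p = 0.0243, edgeR). This call was lost on leaving out Ctl iN library B (0.18, adjusted p = 0.1) or any 1 of the Del iN libraries A, B and C (adjusted p = 0.0678, 0.0759 and 0.0572), and the authors' deposited table gives Nhlh2 an adjusted p of 0.0709.

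Insm1 (chr2:146221997-146225020, plus strand) encodes a zinc finger repressor that acts in newborn neurons and in delaminating progenitors. It had 15.3, 17.4 and 12.7 CPM in Del iN, against 8.97, 8.26 and 8.25 CPM in Ctl iN. All 3 Del iN libraries were above all Ctl iN libraries, 1.79-fold on average (log2 fold change 0.84 ± 0.12 SE, adjusted p = 0.00014, edgeR). In ESC it had 7.71, 8.04 and 7.64 CPM with the deletion and 6.61, 6.28 and 5.54 CPM in controls. These groups did not overlap either, but the difference did not pass (log2 fold change 0.33 ± 0.10 SE, adjusted p = 0.156, edgeR). The interaction for Insm1 was 0.49 ± 0.17 (adjusted p = 0.0678, edgeR), which passed only without Del iN library C among the alternatives run (0.61, adjusted p = 0.0204).

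Neurod1 (chr2:79452637-79456636, minus strand), a differentiation factor directly activated by neurogenins, did not pass. It had 16.9, 14.1 and 14.9 CPM in Del iN, against 14.7, 12.7 and 11 CPM in Ctl iN, and the groups overlapped in CPM (log2 fold change 0.27 ± 0.12 SE, adjusted p = 0.103, edgeR). In TPM, which divides by transcript length, the groups did not overlap. Neurod1 had 7.18, 5.38 and 6.22 TPM in Del iN and 4.72, 4.8 and 3.8 TPM in Ctl iN. It was called higher without Ctl iN library A (0.37, adjusted p = 0.0331), and in no other alternative. In ESC it had 3.85, 3.99 and 4.24 CPM with the deletion and 4.61, 4.77 and 4.53 CPM in controls, a log2 difference of -0.22 ± 0.11 (adjusted p = 0.38, edgeR).

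Neurod2 (chr11:98325415-98329645, minus strand), a factor of maturing cortical neurons, and Neurod4 (chr10:130268152-130280254, minus strand), a bHLH factor of early neurons and retina, were near the detection limit and untested. Neurod2 had 11, 13 and 3 counts in Del iN, 1, 7 and 2 in Ctl iN and 0 in all 6 ESC libraries. The summed counts, 27 in Del iN and 10 in Ctl iN, gave a depth-scaled ratio of 2.46 with a 95% counting interval of 1.16 to 5.7, which leaves out the spread between libraries, and the libraries overlapped. Neurod4 had 2 to 5 counts in Del iN, 1 to 3 in Ctl iN, 2 to 7 in Del ESC and 2 to 5 in Ctl ESC, with no order among the groups.

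Hes6, Dll1 and Dll3 did not pass in iN. Hes6 (chr1:91411483-91414038, minus strand), which counteracts the repressor Hes1 and promotes differentiation, had 18.7, 17.8 and 18 CPM in Del iN, against 19.1, 20.2 and 22 CPM in Ctl iN. In CPM Del iN were the lower group without overlap, but the log2 fold change of -0.17 ± 0.09 SE did not pass (adjusted p = 0.17, edgeR). In TPM the Hes6 groups overlapped, with 17, 14.6 and 16.2 in Del iN and 13.5, 16.5 and 16.4 in Ctl iN. Dll1 (chr17:15367354-15376932, minus strand), the ligand that signals to Notch on neighbouring cells, had 6.36, 6.49 and 6.34 CPM in Del iN, against 4.89, 5.85 and 5.63 CPM in Ctl iN. Its groups did not overlap, and its log2 fold change was 0.22 ± 0.13 SE (adjusted p = 0.245, edgeR). Dll3 (chr7:28293555-28301785, minus strand), a divergent ligand that acts inside the cell and does not activate Notch on neighbours, had 1.62, 1.32 and 1.27 CPM in Del iN, against 1.74, 1.18 and 1.57 CPM in Ctl iN, with full overlap (log2 fold change -0.07 ± 0.26 SE, adjusted p = 0.871, edgeR).

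**Figure D2:**
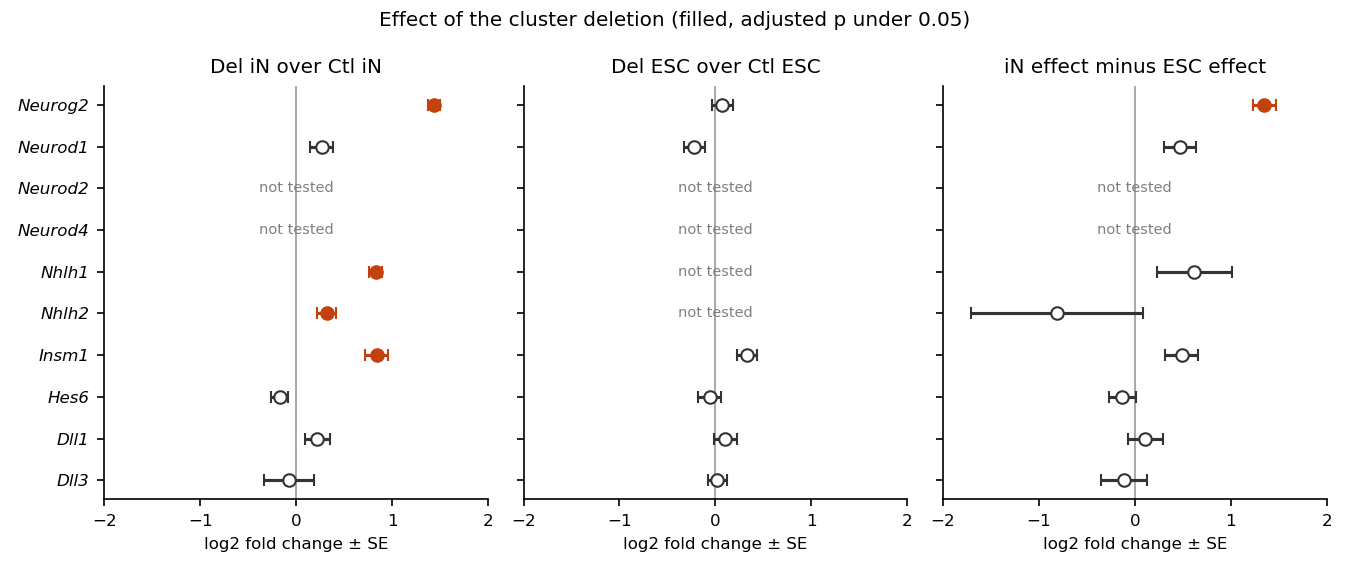
Log2 fold change ± SE (horizontal axis) of each gene between Del iN and Ctl iN, between Del ESC and Ctl ESC, and the difference of these effects. Filled points passed an edgeR adjusted p of 0.05. 4 filled points stand in iN, none in ESC, and Neurog2 alone in the difference.

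In ESC, where 6 of the 10 genes could be tested, the edgeR test called 0, against 1.37% of all 16186 genes called higher and 0.544% called lower. The count at an unadjusted p under 0.05 was 1, Insm1, and DESeq2 also called 0. Hes6 (-0.06 ± 0.12), Dll1 (0.10 ± 0.12) and Dll3 (0.02 ± 0.10) had overlapping ESC groups. In the ESC comparison libraries of the same replicate letter deviated together, most clearly for letter A. With the letter as a block 518 of all genes were called higher and 500 lower, still with 0 of the 10. With the block the adjusted p was 0.1 for Insm1, 0.337 for Neurod1 and 0.736 for Neurog2 (edgeR). The interaction called 1 of 8 higher (Neurog2) and 0 lower, against 5.01% and 8.49% of all 18300 genes. Neurod1 (0.47 ± 0.17, adjusted p = 0.0899) missed the threshold, and was called only without Ctl iN library A (0.57, adjusted p = 0.038). The interaction values of Nhlh1 (0.62 ± 0.39) and Nhlh2 (-0.81 ± 0.90) rest on a handful of ESC counts, so a difference was not detectable at this depth.

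Between cell types every gene of the 10 that could be tested differed, in both genotypes and in the same direction. In Ctl iN against Ctl ESC, 6 of 8 were higher and 2 lower by edgeR, where 43.9% of all 17247 genes were called higher and 45.1% lower. In Del iN against Del ESC the counts were also 6 and 2 of 8, where 44.5% of 17525 genes were called higher and 44.9% lower. Most genes were called in these comparisons, so the counts are read here only beside the sizes.

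Neurog2 was 61.6-fold higher in Del iN than in Del ESC (log2 fold change 5.94 ± 0.08 SE, adjusted p = 4.14e-15, edgeR) and 24.2-fold higher in Ctl iN than in Ctl ESC (4.60 ± 0.08, adjusted p = 4.64e-14). The Nhlh pair had the highest folds of the 10. Nhlh1 had 8347 summed counts in Del iN against 18 in Del ESC, a ratio of 465 (95% counting interval 294 to 785), and 4306 in Ctl iN against 15 in Ctl ESC, a ratio of 303 (184 to 542). Nhlh2 had 1857 counts in Del iN against 5 in Del ESC, a ratio of 372 (159 to 1148), and 1339 in Ctl iN against 2 in Ctl ESC, a ratio of 707 (195 to 5844). The intervals cover counting error only. Neurod2, with 0 counts in ESC, was 9.02-fold higher in Del iN and 3.52-fold higher in Ctl iN, taking 3 counts over the ESC group as the floor. These folds leave out the counting error of the summed iN counts, 27 in Del iN and 10 in Ctl iN.

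Neurod1, Hes6 and Insm1 changed far less between cell types. Neurod1 was 3.76-fold higher in Del iN than in Del ESC (log2 fold change 1.91 ± 0.12 SE) and 2.74-fold higher in Ctl iN than in Ctl ESC (1.45 ± 0.13). Hes6 had 7.41, 7.67 and 6.18 CPM in Del ESC and 7.23, 7.91 and 6.77 CPM in Ctl ESC, and was 2.54-fold higher in Del iN than in Del ESC and 2.79-fold higher in Ctl iN than in Ctl ESC. Insm1 was 1.92-fold higher in Del iN than in Del ESC (0.94 ± 0.12) and 1.37-fold higher in Ctl iN than in Ctl ESC (0.46 ± 0.12, adjusted p = 0.00342, edgeR).

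Dll1 and Dll3, the Notch ligands among the 10 genes, went the other way. Dll3 had 9.63, 10.7 and 10.6 CPM in Del ESC and 9.8, 11.2 and 9.22 CPM in Ctl ESC, and fell by 2.89 ± 0.15 on the log2 scale in Del iN against Del ESC and by 2.78 ± 0.17 in Ctl iN against Ctl ESC. Dll1 had 9.48, 10.2 and 8.64 CPM in Del ESC and 7.33, 9.78 and 9.12 CPM in Ctl ESC. It fell by 0.57 ± 0.11 in Del iN against Del ESC (adjusted p = 0.000403, edgeR) and by 0.67 ± 0.15 in Ctl iN against Ctl ESC (adjusted p = 0.000915, edgeR). No ESC library of either ligand overlapped the iN libraries of the same genotype.

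Levels of different genes were compared in TPM, which divides by transcript length. In Del iN the order was Neurog2 (308 ± 33.7 TPM, mean ± SD, n = 3), Nhlh1 (65 ± 4.62), Hes6 (15.9 ± 1.25), Nhlh2 (12.3 ± 0.603), Neurod1 (6.26 ± 0.901), Insm1 (5.35 ± 0.642), Dll1 (2.33 ± 0.103), Dll3 (0.96 ± 0.231), Neurod2 (0.157 ± 0.0929) and Neurod4 (0.06 ± 0.03). The ranges of neighbours in that order overlapped only for Neurod1 with Insm1 and for Neurod2 with Neurod4. Ctl iN had the same order, with Neurog2 at 97.1 ± 9.1 TPM and Nhlh1 at 31.4 ± 4.29 TPM. There Insm1 (2.58 ± 0.133) overlapped Dll1 (2.15 ± 0.511), and Neurod2 overlapped Neurod4.

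In ESC the order began with Hes6, at 5.24 ± 0.523 TPM in Del ESC and 5.63 ± 0.31 TPM in Ctl ESC. Dll3 followed at 4.5 ± 0.456 TPM in Del ESC and 5.34 ± 0.584 TPM in Ctl ESC, and its range overlapped that of Hes6 in both. Neurog2 was the third, at 4.2 ± 0.42 TPM in Del ESC and 4.07 ± 0.217 TPM in Ctl ESC. Among all gene entries, the mean TPM of Neurog2 ranked 191st in Del iN and 698th in Ctl iN, against 9423rd in Del ESC and 9573rd in Ctl ESC.

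**Figure D3:**
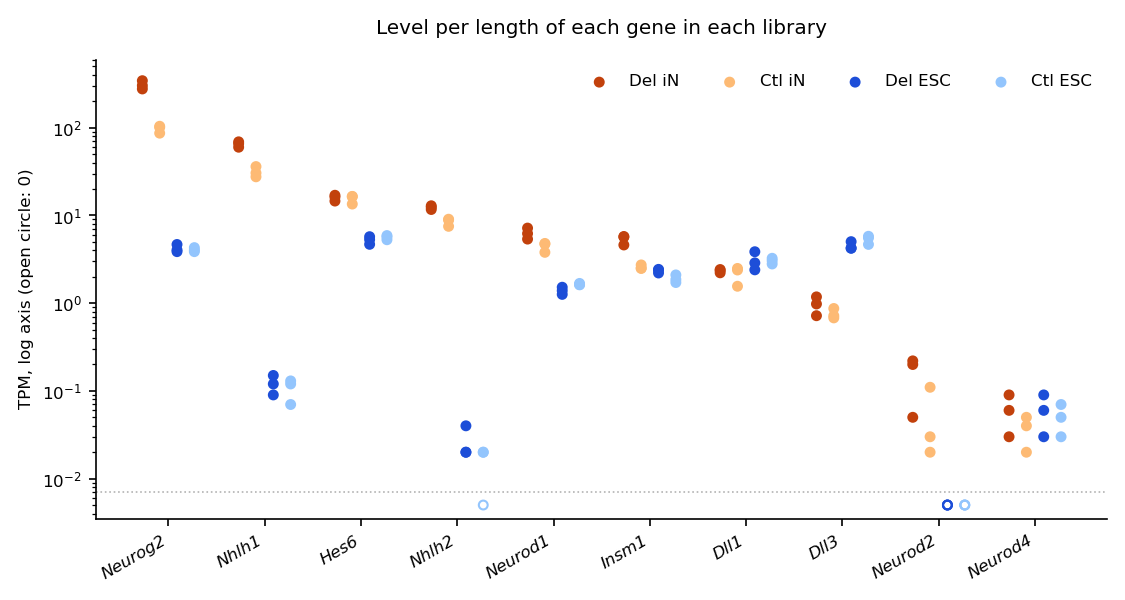
TPM of each gene in each library on a log axis, ordered by the mean in Del iN; colours mark Del iN, Ctl iN, Del ESC and Ctl ESC, and open circles under the dotted line are libraries at 0. Neurog2 spans 308 TPM in Del iN to 4.07 TPM in Ctl ESC, while Neurod4 stays under 0.1 TPM in every library.

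The profile of Neurog2 over all 12 RNA libraries was compared with those of all other genes. Likeness was the Euclidean distance between profiles of log2(CPM + 1), each centred on its own mean. A distance of 0 means the same steps between libraries on that scale. The added 1 flattens values under 1 CPM, so near genes can differ from Neurog2 in their fold between ESC and iN. The 5 nearest named genes were Calb1 (0.517), a calcium-binding protein, Lrrtm2 (0.616), a postsynaptic adhesion protein, Tmc3 (0.702), a transmembrane channel-like protein, Lynx1 (0.795), a modulator of nicotinic receptors, and Rasgrf2 (0.816), a Ras exchange factor. Calb1 averaged 68.4 ± 5.68 CPM in Del iN, 27 ± 4.81 CPM in Ctl iN, 0.306 ± 0.0842 CPM in Del ESC and 0.277 ± 0.157 CPM in Ctl ESC (SD, n = 3). Its log2 fold change from ESC to iN was 7.76 ± 0.14 SE in Del and 6.62 ± 0.26 in Ctl. Neurog2 had the smaller values of 5.94 ± 0.08 in Del and 4.60 ± 0.08 in Ctl. Between Del iN and Ctl iN Calb1 was higher by 1.34 ± 0.10 on the log2 scale, beside 1.44 ± 0.06 for Neurog2. Calb1 was picked by likeness over these same libraries, so the nearness of these values is built into the choice. Of the other genes described here, Nhlh2 was nearest (rank 83, distance 1.55), then Nhlh1 (rank 503, 2.35), Neurod1 (rank 3068, 6.51) and Hes6 (rank 3551, 6.93). Dll3 was farthest, at 12.8.

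**Figure D4:**
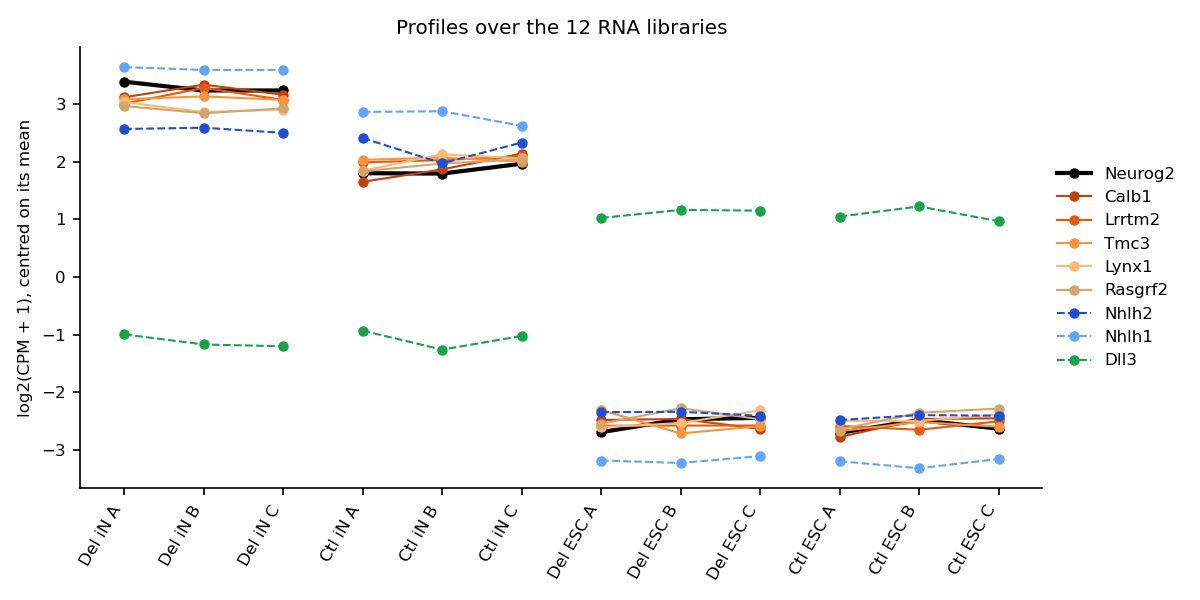
Profiles of Neurog2, its 5 nearest genes, Nhlh2, Nhlh1 and Dll3 over the 12 RNA libraries, as log2(CPM + 1) centred on the gene's mean (vertical axis); lines join libraries of 1 group and replicates have no order. The 5 nearest genes keep within a distance of 0.816 of Neurog2, while Dll3 runs opposite at 12.8.

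Ago2 CLIP gave a different ranking of the 10 genes. The authors' lists hold 22432 regions, each with a log2 fold of HA-Ago2 immunoprecipitate over untagged Ago2 immunoprecipitate and over its own input. The fold and −log10 p are the authors', per region, with the replicates not kept apart. Of the regions, 72 lay in 8 of the 10 genes: 26 in Neurod1, 26 in Neurog2, 8 in Insm1, 4 in Hes6, 4 in Dll1, 2 in Nhlh2, 1 in Nhlh1 and 1 in Neurod4. Neurod2 and Dll3 had none listed. At a stricter setting, a log2 fold of at least 3 over untagged Ago2 with a −log10 p of at least 3, 21 of the 72 were left, all in Neurod1. Many regions overlap or adjoin, so they are not separate sites. Joined, these 21 made 8 stretches. The same setting kept 3.69% of all regions.

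The Neurod1 regions covered 524 bases in 10 separate stretches and ended 178 bases before the end of the gene. Their log2 fold over untagged Ago2 was 1.94 to 5.48 with a median of 3.92, against a median of -0.134 over all regions. The highest, 5.48 with a −log10 p of 11.9, was at chr2:79453071-79453128. By bases covered, Neurod1 ranked 196th of the 6405 genes with a region.

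The Neurog2 regions stood apart from those of Neurod1 in both height and place. All 26 lay 1033 to 1774 bases after the start of the 2904-base gene, and none in its last 1129 bases. They formed a group of 12 that ended 1361 bases after the start, with a median log2 fold of 0.28 over untagged Ago2. After a gap of 219 bases came a group of 14 that began at 1581 bases, with a median of 0.89. These 14 adjoined base to base as a single stretch, and all 26 covered 457 bases in 6 stretches. The median of all 26 was 0.481 and the highest 2.63, over 6 bases at chr3:127634407-127634412. Over input, where the denominator holds whole RNA of the same cells, the median log2 fold was 2.15 for Neurog2, 4.3 for Neurod1 and 2.22 for all regions. Neurog2 had 97.1 TPM in Ctl iN and Neurod1 4.44 TPM. The part of RNA abundance in these folds was not tested. Whether the CLIP reads of Neurog2 came from the transgene or from the cell's own gene cannot be told apart.

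**Figure D5:**
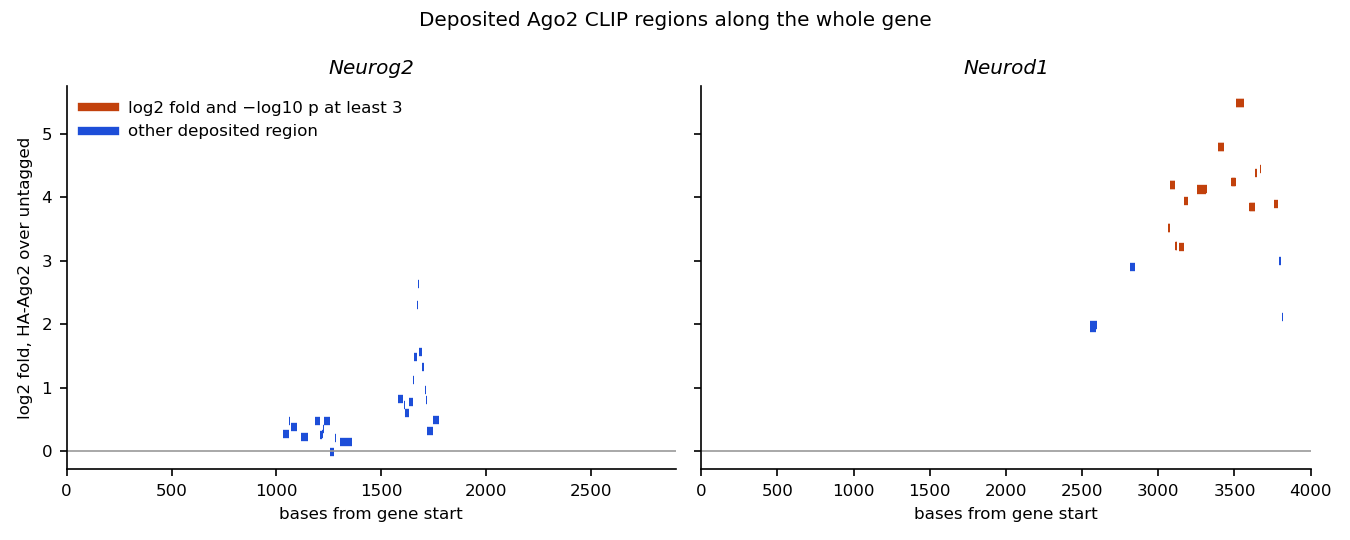
Deposited Ago2 CLIP regions of Neurog2 and Neurod1 by distance from the gene start in bases (horizontal axis, whole gene) and log2 fold of HA-Ago2 over untagged Ago2 (vertical axis). Regions of Neurod1 reach 5.48 towards the end of the gene, and those of Neurog2 stay at or under 2.63 and stop 1129 bases before its end.

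The deposited table of regions matched to microRNAs of the deleted cluster names 636 genes in 997 entries, and 4 of the 10 genes in 8 of these. Neurod1 had 5 entries: 3 for miR-369-3p, on adjoining and overlapping regions at chr2:79453071-79453159, and 2 for miR-1193-3p on regions that share nearly all bases at chr2:79453524-79453560. They thus describe 2 places, with log2 folds over untagged Ago2 of 4.24 to 5.48 and 4.2. Neurod4 had 1 entry, for miR-666-3p (log2 fold 2.58, −log10 p 1.89), and Nhlh1 1, for miR-412-3p (2.11, −log10 p 1.67). Nhlh2 had 1, for miR-154-5p (0.133, −log10 p 0.119), a region near the level of untagged Ago2. The table's code for the type of site was the same letter for all 8 and is not explained in the sources used here.

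The matched microRNAs were lost with the deletion as far as the authors' deposited small RNA table lists them. In that table the log2 fold change between Del iN and Ctl iN was -9.535 for miR-369-3p (mean normalised count 2228), -9.278 for miR-154-5p (1594), -10.58 for miR-666-3p (234) and -9.958 for miR-1193-3p (157). miR-412-3p had a mean normalised count of only 1.15 in the authors' deposited table of Ctl iN against Ctl ESC. Set beside the RNA, the genes with a matched region were Nhlh1 and Nhlh2, higher in Del iN by 0.83 and 0.32 on the log2 scale, Neurod1 at 0.27, not called, and Neurod4, not tested. Those with no matched region were Neurog2 and Insm1, higher by 1.44 and 0.84, and Hes6, Dll1 and Dll3, not called. Neurod2, with no matched region, was not tested. Among tested genes, 2 of 3 with and 2 of 5 without a matched region were called higher in Del iN, against 12.4% of all genes. Of the 2 with a match, Nhlh1 was matched to the scarce miR-412-3p. The Nhlh2 region was near the untagged level, and the Nhlh2 call was lost in 4 of 11 alternatives. The counts are read no further. In ESC, where of the 4 only Neurod1 could be tested, it was not called.

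The rest of the pathway was followed in 6 lists chosen by role. Among 13 other neural bHLH genes, including Neurog1 and Atoh1, only 2 passed the low-count filter in iN, and Tal1, a bHLH factor of blood and of some midbrain and spinal neurons, was higher. It averaged 8.15 ± 0.677 CPM in Del iN and 3.91 ± 0.683 CPM in Ctl iN (log2 fold change 1.06 ± 0.15 SE, adjusted p = 0.000128, edgeR). Of 7 E proteins and Id inhibitors, the dimer partners of these factors and their antagonists, 6 were tested and 1 was higher, the E protein Tcf4, with 110 ± 11.5 CPM in Del iN and 83.8 ± 6.61 CPM in Ctl iN (0.40 ± 0.08, adjusted p = 0.00134). None was lower in either list, beside the 12.4% higher and 13.3% lower of all genes.

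Of 14 Notch receptors and core signalling genes, Notch1 alone was called in iN, where 12.4% of all genes were called higher and 13.3% lower. It had 4.95, 5.54 and 3.35 CPM in Del iN, against 1.47, 2.6 and 1.45 CPM in Ctl iN, and 69.7 ± 1.28 CPM in Del ESC and 69.9 ± 1.94 CPM in Ctl ESC. The iN groups did not overlap (log2 fold change 1.29 ± 0.25 SE, adjusted p = 0.00155, edgeR), and both were far below the ESC level.

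Of 15 other Notch ligands and modulators tested in iN, 3 were higher and 1 was lower, against the same 12.4% and 13.3% of all genes. Mfng, a Fringe glycosyltransferase that tunes which ligands Notch answers, averaged 13.6 ± 0.14 CPM in Del iN and 8.35 ± 1.37 CPM in Ctl iN (0.71 ± 0.12, adjusted p = 0.00043, edgeR). The ligand Dll4 (0.43 ± 0.13, adjusted p = 0.0265) and Dlk2 (0.60 ± 0.18, adjusted p = 0.0246) were also higher by edgeR, each lost in 4 of the 11 alternatives run. Dlk1, a noncanonical ligand encoded in the same imprinted domain as the deleted cluster, averaged 4.3 ± 0.535 CPM in Del iN and 10.5 ± 1.03 CPM in Ctl iN, and fell by 1.28 ± 0.14 (adjusted p = 9.43e-06, edgeR). Of the Notch effectors, the Hes and Hey repressors among them, 5 of 9 were tested and 1 was lower (13.3% of all genes), Sox9 (-0.80 ± 0.24, adjusted p = 0.0251, edgeR), a call lost without Ctl iN library A or C or Del iN library A or B (adjusted p = 0.0532, 0.0814, 0.098 and 0.102).

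Of 29 other genes known downstream of neurogenins and tested in iN, 7 were higher and 4 lower, beside 12.4% and 13.3% of all genes, with a median log2 fold change of 0.12 against 0.00 for all genes. The share called lower is close to that of all genes. The largest were the protocadherin Pcdh8 (15.6 ± 0.799 CPM in Del iN and 9.05 ± 1.11 CPM in Ctl iN, 0.79 ± 0.11), the zinc finger factor St18 (28.6 ± 0.366 CPM in Del iN and 17 ± 1.55 CPM in Ctl iN, 0.76 ± 0.08) and Btg2, an antiproliferative gene of neuron-producing progenitors (15.1 ± 0.214 CPM in Del iN and 9.19 ± 1.25 CPM in Ctl iN, 0.70 ± 0.11). Lzts1 fell by 0.43 ± 0.07, with 28.5 ± 2.35 CPM in Del iN and 38.3 ± 1.43 CPM in Ctl iN. In ESC the edgeR test called 0 genes of the 6 lists between Del and Ctl without the replicate block. With it 3 were called: Id1 (0.19 ± 0.04), Tcf12 (-0.18 ± 0.04) and Elavl2 (-0.17 ± 0.04). Of all 16186 genes, 1.37% were called higher and 0.544% lower without the block, and 518 higher and 500 lower with it. The 3 calls are thus not read as a result about the lists. In Ctl iN against Ctl ESC, 23 of 29 downstream genes were higher and 5 lower, with a median log2 fold change of 4.59. Of all genes, 43.9% were higher and 45.1% lower there. In Del iN against Del ESC 25 of 30 were higher and 5 lower, with a median of 4.41, beside 44.5% and 44.9% of all genes. The core Notch genes split, with 7 of 14 higher and 6 lower in each genotype. The E protein and Id list had 3 of 7 higher and 4 lower in each. Both splits are near the shares of all genes. Of 16 other Notch ligands and modulators, 10 were higher and 2 lower in Ctl iN than in Ctl ESC. In Del iN against Del ESC, 11 were higher and 2 lower.

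Markers of other cell types were measured beside these iN results, where 12.4% of all genes were called higher and 13.3% lower. The 8 neural progenitor markers summed to 455 to 479 CPM in Del iN and 591 to 634 CPM in Ctl iN, with 2 of the 5 tested called higher and 1 lower. Of the 13 stem cell markers 7 were tested, 2 called higher and 4 lower, and of the 14 neuron markers 6 were higher and none lower. Of the 10 glial markers 5 were tested, and 2 were higher and none lower: S100b (1.75 ± 0.27 on the log2 scale, 2.33 CPM in Del iN and 0.681 CPM in Ctl iN) and Mbp (0.22 ± 0.07, 43.4 CPM in Del iN and 37.4 CPM in Ctl iN). The endoderm and mesoderm list, which includes Tal1, summed to 9.28 to 10.9 CPM in Del iN and 4.88 to 5.71 CPM in Ctl iN. Without Tal1 its other 7 genes summed to 1.83 to 2.12 CPM in Del iN and 1.14 to 1.74 CPM in Ctl iN. The fibroblast list summed to 82.5 to 93 CPM in Del iN and 66.7 to 76.2 CPM in Ctl iN. Their part in the differences of Neurog2, Nhlh1, Nhlh2 and Insm1 was not tested.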

How the data were processed

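RNA-seq libraries (12, 3 per group), small RNA libraries (12) and CLIP libraries (8, 2 per kind) were made from mouse cells. The submitters' processing notes list RSEM 1.2.30 and STAR 2.4.1d among the tools, also cutadapt 1.4.2, SAMtools and DESeq2, and the build mm10, with no roles; strand setting, annotation release and CLIP peak caller are not given in the sources used here, so the counts of overlapping or antisense genes are uncertain. The deposited gene files hold, per the file headers, RSEM's expected counts and TPM, and nothing in them separates transgene reads. The authors' deposited tables give log2 fold changes with adjusted p-values, and mean normalised counts (a signal averaged over libraries), and the deposited CLIP lists a log2 fold and a −log10 p per region.

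Gene symbols from RefSeq tables matched 52403 of 52636 entries. Rounded to whole numbers, the expected counts went into edgeR 4.0.16 (R 4.3.3) with TMM factors and filterByExpr (min.count 10); the quasi-likelihood F test was adjusted by Benjamini-Hochberg over all genes and called at 0.05, on the 6 libraries of a comparison or, for the interaction, all 12. SE is the size of the log2 fold change divided by the square root of F. The test was checked on simulated counts. Alternatives were all 12 libraries in 1 fit, leaving out each library, a replicate block, no low-count filter, DESeq2's size factors and its Wald test (DESeq2 1.42.0). Same-letter libraries of the ESC deletion comparison deviated together (r = 0.446, 0.125 and 0.205 across genes for A, B and C), each over 0.1. Del ESC C with Ctl ESC B had 0.171, over the value of B with B, and Del ESC B with Ctl ESC C had 0.0769. The remaining different-letter values were negative. The letters thus set A apart there but do not clearly pair B and C. The ESC values given are from the fit without the block unless the block is named, and the interaction has no block. Counting intervals are exact binomial at 95% and cover counting error only. The floor bounds the ESC side alone and leaves out the counting error of the iN side. Coordinates are GRCm38 (mm10), 1-based.

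The 10 genes, the context lists and the tests were chosen with earlier results of these data known. Named by rule were all 10, the 5 nearest to Neurog2 (Gm and Rik symbols left out), Mirg and at most 4 genes per list. These list genes had the largest change past the threshold in Del iN against Ctl iN and a mean of at least 1 CPM. Id1, Tcf12, Elavl2, S100b, Mbp, Slc1a3, Gfap and Sox10 were named after their values were seen. The per-transcript small RNA files were not used.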

Additional observations from a re-analysis of the deposited data

Results flagged for a closer look

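The interaction, the log2 effect of the deletion in iN minus that in ESC, passed the edgeR threshold over 12 libraries for 8 of the genes named, beside 5.01% of all genes called higher and 8.49% lower. For Neurog2 it was 1.35 ± 0.12 (SE, adjusted p = 3.29e-06), also past the threshold in all 16 alternatives. The other 7 were named for a large change between Del iN and Ctl iN, which is part of the interaction, so their values are a description and support nothing. They were 1.28 ± 0.23 for Notch1, 1.12 ± 0.26 for Pcdh8, 1.04 ± 0.23 for Tal1, 0.77 ± 0.17 for Mfng, 0.64 ± 0.12 for Btg2, 0.53 ± 0.11 for Tcf4 and -0.95 ± 0.19 for Dlk1. Pcdh8 missed the threshold without Ctl ESC library C (0.94, adjusted p = 0.0555).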

How the results depend on the processing

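The calls of Neurog2, Nhlh1 and Insm1 in Del iN against Ctl iN held in all 11 alternatives (1.39 to 1.49, 0.75 to 0.87 and 0.73 to 0.95 on the log2 scale), and so did all 8 calls in each comparison of iN with ESC, where up to 7 genes were higher in an alternative. With each library left out in turn, 3 to 5 of the 10 genes were higher in Del iN, 0 were called in ESC, and the interaction called 1 to 2, with 2 without Ctl iN library A (Neurod1 added) or Del iN library C (Insm1 added). Signs turned, with no call, for Dll3 in iN (-0.24 to 0.04), ESC (-0.04 to 0.10) and the interaction (-0.27 to 0.01), for Dll1 in ESC (-0.02 to 0.19) and for Hes6 in ESC (-0.12 to 0.03). The cause was not tested. The CLIP threshold left 21 of 72 regions. Requiring 50% overlap between the lists left 72. That outcome was fixed beforehand, since both lists hold the same 22400 distinct regions, so it tests nothing. The replicate block, with pairing by letter, gave the same 4 higher calls in number in iN as the fit without it and 1 in the interaction. Outside the ESC comparison same-letter libraries did not deviate together (same-letter r of -0.234 to 0.0376 between Ctl iN and Ctl ESC). Depth limits Neurod2, Neurod4 and, in ESC, Nhlh1 and Nhlh2. Whether Del iN and Ctl iN overlapped depended on the scale, CPM or TPM, for Neurod1, Hes6 and Dll1. CPM carry TMM factors and TPM do not. Neurog2 averaged 605 CPM in Del iN and 223 CPM in Ctl iN, and 308 and 97.1 TPM, a larger ratio. The tests used counts with TMM factors.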

Other observations

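RSEM's effective transcript mix for Dll1 differed between iN groups. The length it assigned to Dll1, weighted over isoforms, was 3021, 3018 and 3032 bases in Del iN, against 2745, 2542 and 2178 bases in Ctl iN, with no overlap. On the TPM scale, which divides by this length, Dll1 had 2.42, 2.22 and 2.36 in Del iN and 1.56, 2.39 and 2.49 in Ctl iN, so the groups overlapped there while they did not in CPM. The ESC lengths of 2447 to 3581 bases in Del ESC and 2614 to 2893 bases in Ctl ESC overlapped. Summed counts behind these lengths are low, 123 to 126 per Del iN library and 73 to 124 per Ctl iN library.

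Isoform-weighted lengths of Hes6 (1371 to 1389 bases in Del iN and 1365 to 1377 bases in Ctl iN) overlapped between the iN groups, as did those of Nhlh2 and Dll3. The other 6 genes had 1 length in every library.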
